A study of Caenorhabditis elegans with 2 samples.

Results

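The genes described are 10 fatty acid desaturase and elongase genes of Caenorhabditis elegans, fat-1 to fat-7, elo-1, elo-2 and elo-5, taken as a named list from the 19973 protein-coding genes of the nuclear chromosomes. For each gene, every deposited peak with a summit within 1000 bp of the 5' end of an annotated transcript was collected. The peaks come from chromatin immunoprecipitation with sequencing (ChIP-seq) of MDT-29, a subunit of Mediator, in 2 samples that the labels number as biological replicates 1 and 2. Both samples were whole L4 larvae of strain RJP4521, 48 hours old and synchronised as L1 larvae starved after bleaching. In this strain a tag was inserted by CRISPR at mdt-29 on chromosome III. The labels give the tag once as Degron::GFP and once as an eGFP fusion, where GFP is the green fluorescent protein. The immunoprecipitation used an antibody against GFP. Both samples have 1 genotype, 1 stage and no treatment, so there is no comparison between conditions. Since whole animals were used, the cells that carry a peak cannot be told apart, and peaks from few cells and from weak binding in many cells cannot be told apart either.

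Desaturases place double bonds in fatty acid chains, and elongases lengthen the chains. In C. elegans the delta-9 desaturases FAT-5, FAT-6 and FAT-7 make monounsaturated fatty acids. FAT-2, FAT-1, FAT-3, ELO-1 and FAT-4 then carry out the steps that lead to polyunsaturated fatty acids, which membranes and signalling lipids use. Mediator carries signals from transcription factors on the DNA to RNA polymerase II, and its subunit MDT-15 is known in this worm as a coactivator of desaturase genes.

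A peak of the authors' main list, which was made from both samples and held 1705 peaks, lay within 1000 bp of a 5' end at 4 of the 10 genes. Under the same rule 5.11% of all protein-coding genes had such a peak (1020 of 19973, exact 95% interval 4.81% to 5.42%). The 4 genes were fat-3, fat-4 and elo-1, which act in the polyunsaturated steps, and fat-6, a stearoyl-CoA desaturase gene. A further 2 genes of the polyunsaturated steps, fat-1 and fat-2, had main peaks beyond the window, 1318 bp and 1224 bp upstream. With a window of 2000 bp the count was therefore 6 of 10, against 7.88% of all genes, and all 5 genes of the polyunsaturated steps were among them. No main peak lay within 2000 bp of fat-5, fat-7, elo-2 or elo-5. The genes were named with earlier results of these data known, so the counts carry no test.

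The DNA under these 6 summits is shown because the accounts of the peaks refer to it. Each stretch is 151 bases of the reference genome (ce11, which is WBcel235), centred on the summit and written 5' to 3' on the strand of the gene named. Capitals mark matches to 7 motifs searched on both strands: TGATAA, the site of GATA factors, TTCNNGAA and GAANNTTC, pairs of heat shock units, CACGTG, the E-box, TCACNCCAC, a sterol response element, TATAAA, the TATA box, and GTAAACA, a forkhead site. The stretches are chrIV:13314251-13314401 for fat-1, chrIV:13322574-13322724 for fat-2, chrIV:9802663-9802813 for fat-3, chrIV:9801633-9801783 for fat-4, and chrIV:9526091-9526241 for elo-1, all on the plus strand. The stretch for fat-6 is chrIV:11916211-11916361, on the minus strand.
fat-1: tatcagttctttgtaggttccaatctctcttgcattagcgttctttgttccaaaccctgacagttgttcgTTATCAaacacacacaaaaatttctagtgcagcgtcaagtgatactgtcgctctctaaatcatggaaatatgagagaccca
fat-2: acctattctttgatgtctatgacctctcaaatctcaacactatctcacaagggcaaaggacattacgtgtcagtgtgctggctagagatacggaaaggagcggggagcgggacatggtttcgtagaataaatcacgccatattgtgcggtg
fat-3: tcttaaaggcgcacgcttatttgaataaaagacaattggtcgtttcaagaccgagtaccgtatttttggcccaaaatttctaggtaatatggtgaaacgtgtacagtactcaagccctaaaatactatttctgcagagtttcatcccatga
fat-4: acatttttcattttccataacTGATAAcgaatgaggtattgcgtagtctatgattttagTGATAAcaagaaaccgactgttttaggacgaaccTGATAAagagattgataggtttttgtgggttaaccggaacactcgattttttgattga
elo-1: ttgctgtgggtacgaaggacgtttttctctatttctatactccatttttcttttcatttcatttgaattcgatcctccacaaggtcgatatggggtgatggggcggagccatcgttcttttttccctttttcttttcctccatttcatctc
fat-6: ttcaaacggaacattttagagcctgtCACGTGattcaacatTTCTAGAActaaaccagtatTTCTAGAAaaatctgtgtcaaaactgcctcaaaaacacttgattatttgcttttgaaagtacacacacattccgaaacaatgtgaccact

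The stretch at fat-4 held 3 matches to TGATAA, and that at fat-1 held 1, on the other strand and ending at the summit base. TGATAA occurred in 16.5% of windows of 151 bp placed 200 bp upstream of all protein-coding genes and in 14% of main summit windows. At least 3 matches occurred in 0.24% of the promoter windows and in 0.293% of the summit windows, a count looked up after the matches had been seen. The stretch at fat-6 held 2 matches to TTCNNGAA, both reading TTCTAGAA, and 1 match to CACGTG. TTCNNGAA occurred in 9.69% of promoter windows and 10.9% of summit windows, and at least 2 matches in 0.606% and 2.64%, again looked up after the fact. CACGTG occurred in 2.48% of promoter windows and 9.62% of summit windows. The stretches at fat-2, fat-3 and elo-1 held none of the 7 motifs. The other motifs, found at none of the 6, occurred in 9.8% (GAANNTTC), 0.245% (TCACNCCAC), 19.2% (TATAAA) and 2.51% (GTAAACA) of promoter windows, and in 12.4%, 0.938%, 9.03% and 2.11% of summit windows. The 2 sets of windows differed in base composition. The median share of G and C bases was 33.8% in promoter windows and 45% in summit windows. Whether this bears on the motif shares was not tested. Every word of 36 bases in the 6 stretches occurred once in the genome.

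**Figure D1:**
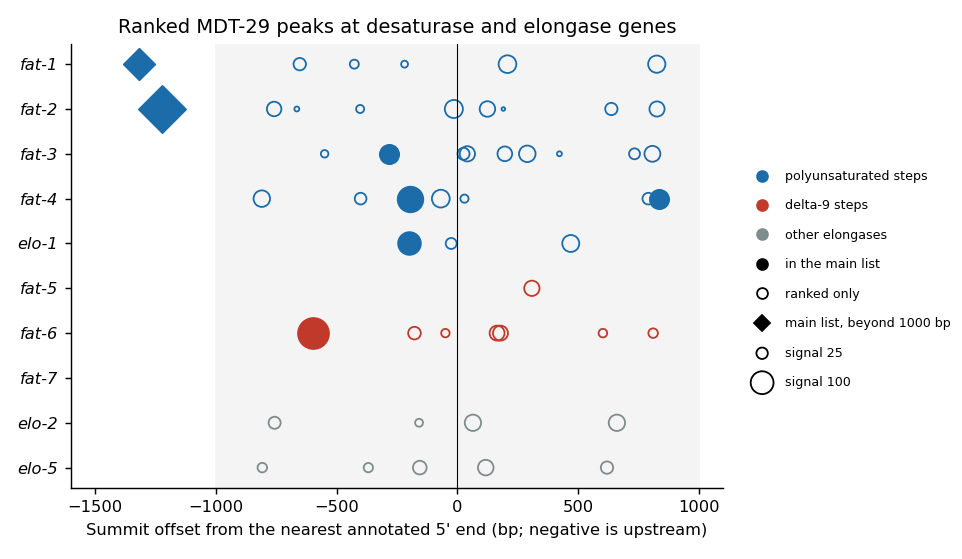
Summits of the series ranked list within 1000 bp (shaded) of the nearest annotated 5' end, in bp, 1 line per gene. Marker area is proportional to signal, filled circles are peaks of the main list, and diamonds are main peaks farther out. The genes of the polyunsaturated steps each have a filled marker, 2 of them diamonds, while fat-5, fat-7, elo-2 and elo-5 have none.

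The plot of summit offsets places these peaks among the weaker ones that the authors ranked but did not keep. The ranked list held 98568 peaks and put at least 1 summit within 1000 bp of 76.4% of all genes, so a ranked peak alone says little. Of the 10 genes only fat-7 had none. Each peak carries a signal, a value of the authors for its strength, with a median of 99.5 in the main list and 22.6 in the ranked list. Each also carries a score of up to 1000 derived from the irreproducible discovery rate (IDR). This rate is low for peaks that rank consistently high in both lists of a pair. The lowest score kept in the main list was 830, a global IDR of about 0.01.

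fat-2 encodes the delta-12 desaturase that turns oleic into linoleic acid, the entry into polyunsaturated fatty acids. Its main peak, at chromosome IV 13322489 to 13322808, lay between genes, and the 5' end of fat-2, 1224 bp away, was the nearest annotated one. The signal was 213, rank 148 of 1705 main peaks, the highest of any main peak described here, and the score was 1000. Replicate 1 gave 93.5 and replicate 2 gave 117, which is 105 ± 17.0 (SD, n = 2). The peak was in the thresholded list of each sample and in the conservative list. Within 1000 bp of that 5' end the strongest peak of the main ranking had a signal of 46.2 and a score of 809, just below the score kept. A ranked peak of signal 62.7 lay farther inside the gene, at the 5' end of the short transcript W02A2.1b.1. Replicate 2 alone held a thresholded peak within the window. It lay 269 bp downstream of the most upstream 5' end, with a signal of 25.6 and a score of 879. Replicate 1 had no score above 409 within the window.

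fat-1 encodes the omega-3 desaturase, which mammals lack. It lies upstream of fat-2 on the same strand, with 5061 bp between the genes. Its main peak, at chromosome IV 13314166 to 13314485, also lay between genes with fat-1 as the nearest 5' end. The signal was 94.8, rank 940 of 1705, and the score 1000. Replicate 1 gave 41.8 and replicate 2 gave 52.7, or 47.2 ± 7.65 (SD, n = 2). Both values were less than those at the fat-2 peak in the same sample. The fat-1 peak was in the conservative list and in that of replicate 2, and not in that of replicate 1. Within 1000 bp the strongest ranked signal was 60.1 and the best score 730. Around the 5' end of fat-1, 95.2% of 36-base words were unique in the genome, with up to 23 copies of a word. Whether this bears on the ranked peaks there was not tested.

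fat-4, the delta-5 desaturase gene, and fat-3, the delta-6 desaturase gene, lie in tandem on the plus strand of chromosome IV. fat-4 comes first and ends 796 bp before fat-3 begins. Their proteins shared 46.1% of aligned residues, and those of fat-1 and fat-2 shared 54.3%. The 2 main peaks of the locus had summits 1030 bp apart. The fat-4 peak (9801548 to 9801867) lay 197 bp upstream of the 5' end of a short transcript, T13F2.1c.1. That place is inside the full-length transcript, in the last of its 7 introns. This intron of 489 bp was the longest of the transcript, and the summit lay 2279 bp downstream of the most upstream 5' end of fat-4 and 1315 bp upstream of fat-3. The fat-3 peak (9802578 to 9802897) lay between the genes, 285 bp upstream of fat-3 and 512 bp past the end of fat-4. It also fell within 1000 bp of the short fat-4 transcript, 833 bp downstream of its 5' end. Hence fat-4 counts as bound only through a transcript that starts inside the gene. With the most upstream 5' end alone, 3 of the 10 genes were bound (fat-3, elo-1 and fat-6), against 4.6% of all genes.

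**Figure D2:**
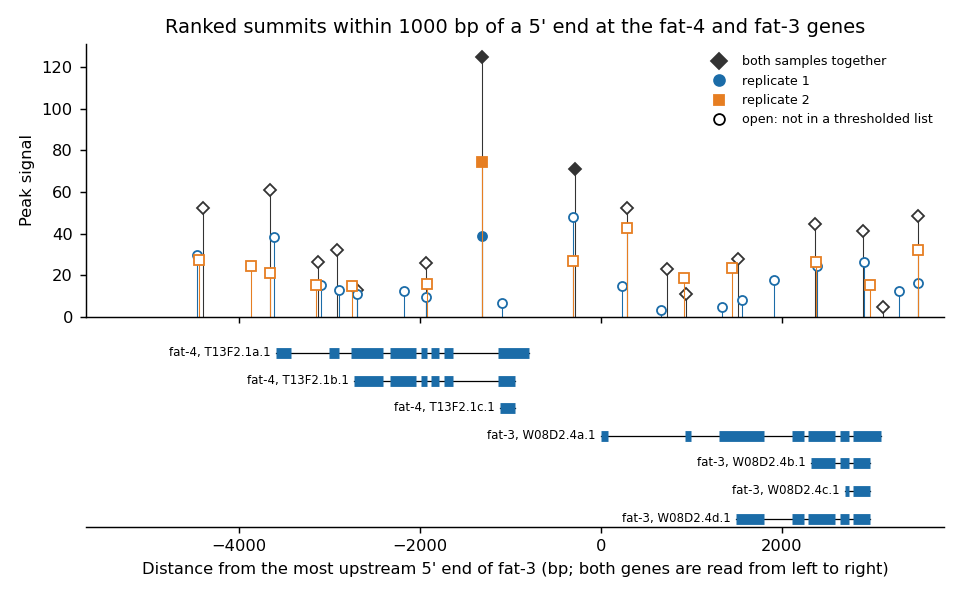
Ranked peaks at the fat-4 and fat-3 locus: height is the peak signal, the horizontal axis is distance in bp from the most upstream 5' end of fat-3, and filled markers reached the score minimum of their list. Below, annotated transcripts with exons as boxes. The peak in the last intron of fat-4 is filled in both samples, and the peak between the genes is filled only in the list made from both.

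The samples ordered these neighbouring peaks in opposite ways. At the fat-4 peak the signal was 38.8 in replicate 1 and 74.2 in replicate 2, or 56.5 ± 25 (SD, n = 2). At the fat-3 peak it was 48.0 in replicate 1 and 27.0 in replicate 2, or 37.5 ± 14.8 (SD, n = 2). Replicate 2 had the higher value at fat-4 and the lower at fat-3, so which peak was stronger depended on the sample. The difference between these means lies within the spread of the samples. The ratio of replicate 2 to replicate 1 was 1.91 at fat-4 and 0.563 at fat-3. Over the 1675 main peaks with a value in each sample its median was 1.25, and their 10th and 90th percentiles were 0.803 and 1.96. The fat-3 ratio stood at percentile 1.37 of these peaks.

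The same peaks differed in how far they passed the authors' threshold. In the main list fat-4 had a signal of 125 (rank 520) and a score of 1000, and fat-3 a signal of 70.8 (rank 1533) and a score of 837, close to the 830 kept. fat-4 was also in both single-sample lists, with scores of 911 and 1000. The fat-3 peak scored 539 in replicate 1 and 238 in replicate 2 and was in neither list. It scored 522 in the conservative ranking and was not kept there. In that ranking the paired peaks of the IDR were, in 62.8% and 66.9% of cases, identical to ranked peaks of replicate 1 and of replicate 2. In the main ranking 0 were identical, so the pair it compared was another.

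elo-1 encodes the elongase that lengthens polyunsaturated chains between the delta-6 and delta-5 steps. Its peak, at chromosome IV 9526006 to 9526325, lay 200 bp upstream of the 5' end, with a main signal of 98.6 (rank 870) and a score of 1000. Replicate 1 gave 63.4 with a score of 1000, and replicate 2 gave 44.3 with a score of 701, or 53.9 ± 13.5 (SD, n = 2). Replicate 1 was the higher here, as at fat-3. The peak was in the conservative list and that of replicate 1, and not in that of replicate 2. The ratio of 0.699 stood at percentile 5.25 of main peaks. The summit was nearer to the 5' ends of the noncoding RNA genes F56H11.11 (10 bp) and F56H11.8 (157 bp), which overlap each other on opposite strands. Whether the peak belongs to elo-1 or to these genes cannot be told apart.

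The delta-9 genes differed among themselves. fat-6 had a main peak at chromosome IV 11916211 to 11916363, 599 bp upstream of its 5' end, with a signal of 183 (rank 217) and a score of 1000. Replicate 1 gave 94.5 and replicate 2 gave 102, or 98.3 ± 5.36 (SD, n = 2). The samples were closest to each other here among the 4 genes with a main peak within 1000 bp, with a ratio of 1.08, and the peak was in all 4 thresholded lists. In the main list the peak was narrow, 153 bp against a median of 320 bp. In replicate 1 it was 290 bp wide and in replicate 2 284 bp, each the median of that list. The nearest 5' end was that of ZK822.9, a short protein-coding gene on the opposite strand, 339 bp away, and the summit lay 160 bp past its end.

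fat-7 encodes the other stearoyl-CoA desaturase, and its protein shared 86.1% of aligned residues with that of fat-6. No ranked peak of the main list lay within 1000 bp of its 5' end, and the nearest main peak was 43520 bp away. The gap between ranked summits around it was 12563 bp, against a median of 618 bp on chromosome V. Of the gaps on chromosome V 1.39% were as long. Over all chromosomes, gaps as long held the 5' ends of 22.0% of genes. Replicate 1 had no ranked peak within 1000 bp of fat-7, and its gap there was 29712 bp, with 3.61% of all genes in gaps as long. Replicate 2 had 1 ranked peak in the window, of signal 19.7 and score 80, 949 bp upstream of the 5' end. Of the 36-base words around this 5' end 99.2% were unique, with at most 2 copies, so repeated sequence covered little of the window.

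fat-5 encodes the delta-9 desaturase that acts on palmitoyl-CoA, and its protein shared 64.8% of aligned residues with FAT-6 and 63.8% with FAT-7. In the main ranking the only peak in the window of fat-5 had a signal of 45 and a score of 108, inside the gene. The conservative ranking had 2 peaks in the window, that of replicate 1 had 6 and that of replicate 2 had 1. Some of those in the conservative ranking and in replicate 1 lay upstream of the gene. In the single samples the strongest peak was 21.0 in replicate 1 and 28.7 in replicate 2, or 24.9 ± 5.41 (SD, n = 2). These were different peaks, 811 bp and 320 bp inside the gene. The nearest main peak lay 3178 bp upstream and was nearer to the 5' end of str-77. Of the 3 delta-9 genes, 1 was thus bound.

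The other elongase genes of the list were not bound. elo-2, which encodes an elongase of palmitic acid, reached a ranked signal of 51.3 and a best score of 404. Its strongest peak was 18.7 in replicate 1 and 37.1 in replicate 2, or 27.9 ± 12.9 (SD, n = 2). elo-5, which encodes an elongase of branched-chain fatty acids, reached 46.5 and a best score of 289. Its strongest peak was 24.4 in replicate 1, 223 bp inside the gene, and 32.3 in replicate 2, 329 bp upstream. The mean of 28.4 ± 5.56 (SD, n = 2) is thus over different peaks. The nearest main peaks lay 3236 bp from elo-2 and 16636 bp from elo-5, nearer to the 5' ends of F11E6.4 and perm-3.

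**Figure D3:**
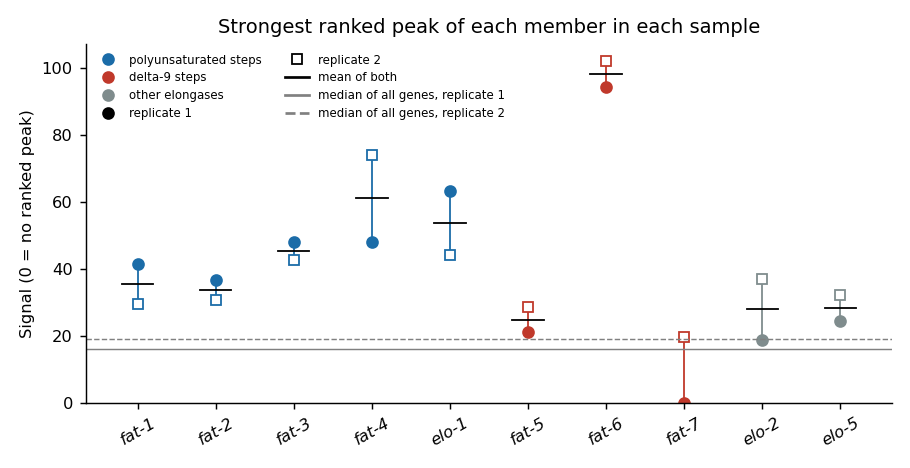
Signal of the strongest ranked peak within 1000 bp of a 5' end in each sample, per gene. The strongest peak of a gene can lie at a different place in each sample. Circles are replicate 1, squares replicate 2, bars their mean where each has a peak, and grey lines the median over all protein-coding genes in each sample. All but fat-7 lie above the median in replicate 1 and all 10 in replicate 2, fat-7 by little. fat-6 is the highest in both samples, and fat-7 has a peak in replicate 2 only.

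The plot of strongest peaks by sample shows that no sample was higher throughout. Replicate 1 was higher at fat-1, fat-2, fat-3 and elo-1, and replicate 2 at fat-4, fat-5, fat-6, fat-7, elo-2 and elo-5. At fat-1, fat-2, fat-3, fat-4, fat-5 and elo-5 the strongest peak lay at a different place in each sample. Their values therefore do not compare the same peak. At the main peaks of fat-1 and fat-2, beyond the window, replicate 2 was the higher. Over all genes the median was 16 in replicate 1 and 19.2 in replicate 2, and whether signal is scaled between samples is not known. In order of the main ranked signal, fat-6 (183) was followed by fat-4 (125), elo-1 (98.6), fat-3 (70.8), fat-2 (62.7), fat-1 (60.1), elo-2 (51.3), elo-5 (46.5) and fat-5 (45). In the single samples the values for fat-6 lay above those of every other gene. Those of fat-4, elo-1 and fat-3 overlapped each other, and both values for fat-3 lay above those for fat-2. From fat-2 down to fat-5 each gene overlapped the next in this order. The strongest replicate 1 peak near fat-4 was the one it shares with fat-3.

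**Figure D4:**
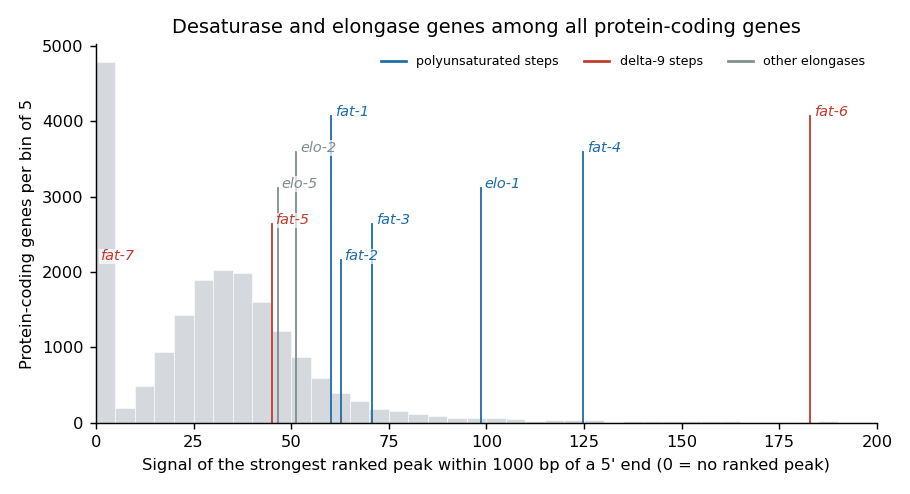
Signal of the strongest ranked peak within 1000 bp of a 5' end for all 19973 protein-coding genes (grey bars, number of genes per 5 units of signal), with coloured lines at the 10 named genes. The first bar holds the genes without a ranked peak, fat-7 among them. The lines of fat-6, fat-4 and elo-1 stand in the sparse upper tail. The axis ends at 200, and genes beyond it are not drawn.

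Among all protein-coding genes, whose median strongest signal was 30.7, the 10 genes had a median of 61.4. Of these, 9 lay above the median of all genes and 6 above its 90th percentile of 59.3. The 6 were fat-6 (percentile 99.2), fat-4 (98.1), elo-1 (97), fat-3 (93.9), fat-2 (91.5) and fat-1 (90.4). elo-2 (84.3), elo-5 (79.1) and fat-5 (76.8) stood between, and fat-7 had no peak. In replicate 1 the same 6 genes lay above percentile 90, with fat-2 the lowest of them at 94.2, and elo-2 stood at 60.2. In replicate 2 fat-1 (80.2) and fat-2 (82.2) lay below it and elo-2 (90.5) above it, so the place of these 3 genes depended on the sample. With the most upstream 5' end only, fat-4 fell to a signal of 60.7 (percentile 91.7) and fat-2 to 46.2 (80.7).

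**Figure D5:**
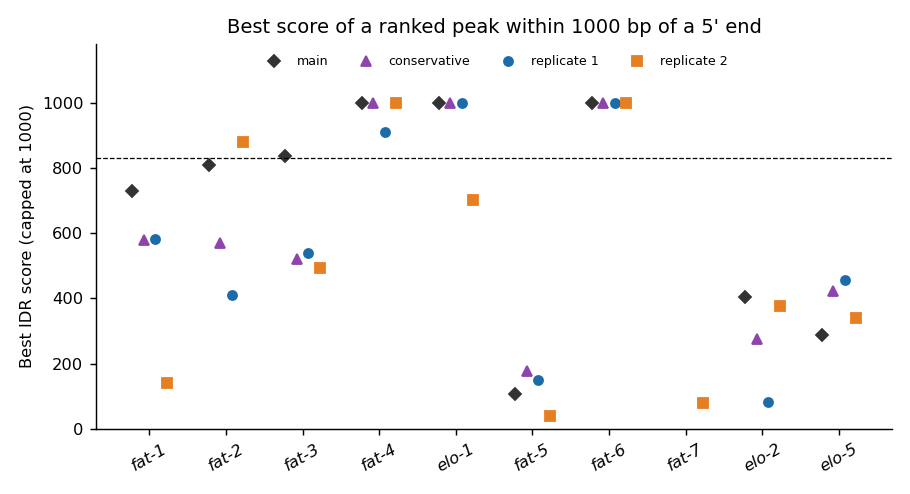
Best IDR score of a ranked peak within 1000 bp of a 5' end, per gene and list: main, conservative, replicate 1 and replicate 2. The dashed line is the lowest score kept, 830. fat-4 and fat-6 lie above it in all 4 lists, elo-1 in 3, and fat-2 and fat-3 in 1 each.

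The plot of best scores shows how the counts depend on the list. The conservative list bound 3 of the 10 genes (fat-4, elo-1 and fat-6), against 5.11% of all genes. The list of replicate 1 bound the same 3, against 2.51%, and that of replicate 2 bound fat-2, fat-4 and fat-6, against 3.4%. At a global IDR of 0.05 the main ranking bound 6, adding fat-1 and fat-2, against 8.74%. Just inside the main threshold was fat-3 (837), and just outside were fat-2 (809) and fat-1 (730). In every list the genes bound within 1000 bp lay on chromosome IV, which holds 8 of the 10 genes. On that chromosome 5.82% of genes were bound by the main list, and on chromosome V, with fat-5 and fat-7, 3.58%.

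Of 25 further genes of fatty acid elongation, desaturation and its control, 2 had a main peak within 1000 bp, against 5.11% of all genes, a share near that background. All main peaks at these 2 genes lay inside the genes. None of 9 other elongation genes (elo-3, elo-4, elo-6 to elo-9, let-767, hpo-8 and art-1) and none of 4 genes that supply electrons to desaturases (cytb-5.1, cytb-5.2, hpo-19 and T05H4.4) was bound. Of 2 genes of fatty acid supply, pod-2 was bound and fasn-1, the fatty acid synthase gene, was not. pod-2 encodes acetyl-CoA carboxylase, and its main peaks lay in introns, near transcripts that start within the gene. The stronger peaks had signals of 88.8 and 88.3. In the single samples the first gave 37.9 and 53.2, or 45.5 ± 10.8 (SD, n = 2), and the second 32.6 and 54.3, or 43.5 ± 15.4 (SD, n = 2). Another main peak, of signal 15, overlapped the first. Replicate 2 was higher at each.

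Of 10 regulators of desaturase genes (sbp-1, scp-1, mdt-15, nhr-49, nhr-80, nhr-13, nhr-66, paqr-2, iglr-2 and fld-1), scp-1 was bound. It encodes the worm counterpart of the protein that escorts the sterol-responsive factor SREBP for cleavage. Its peak lay in an intron, 27 bp from the 5' end of a shorter transcript, with a main signal of 109 (rank 700). The samples gave 44.1 and 54.8, or 49.5 ± 7.54 (SD, n = 2), again with replicate 2 higher. mdt-15 and sbp-1, the Mediator subunit and the SREBP factor known to act on desaturase genes, had no main peak within 1000 bp. With the most upstream 5' end alone, 0 of the 25 genes were bound, against 4.6% of all genes, which for 25 genes is also near the background.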

How the data were processed

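The deposited files were 8 lists of peaks in ce11 coordinates: thresholded and ranked forms of a main list, a conservative list and a list for each of 2 samples. The notes deposited with them say that alignments of both samples went into the main and conservative lists, along with another input that is not explained. The aligner and peak caller are not given in the sources used here. No read totals were used, so depth is unknown. The signal of each peak, its score and, in ranked lists, the −log10 of the global IDR are the authors' deposited values. They served to describe, rank and filter peaks within a list. Signal was also set side by side between samples, and any difference in scale enters its SD.

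Transcripts came from Ensembl release 115 (WBcel235), and positions count from 1. A gene was bound when a peak summit was no more than 1000 bp from any transcript 5' end. For each main peak, the sample value was the highest signal among that sample's ranked peaks overlapping by at least 1 bp. Percentiles are mid-ranks among all genes. Intervals are exact (Clopper-Pearson, 95%) and cover the counting of genes only. Protein identity came from global alignment of translated coding sequences. Values were given for the 10 genes, every further pathway gene with a main peak, and genes whose 5' ends lay nearer to the peaks of the 10 genes. The other pathway genes were named only as members of their lists. Genes nearest to more distant main peaks were named after their values were seen. The genes, lists and motifs were chosen with earlier results of these data known, and no test was made. Other lists, IDR thresholds, windows and 5' ends were tried. Python 3.11.15, numpy 2.4.6, scipy 1.17.1, biopython 1.88 and matplotlib 3.10.9 were used.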

Additional observations from a re-analysis of the deposited data

How the results depend on the processing

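The main limits are the window and the threshold. At a global IDR of 0.001 the counts were 2 of the 10 genes, 1 of the polyunsaturated steps and 0 of the 25 further genes, with 2.43% of all genes bound. At 0.05, 5 genes of the polyunsaturated steps and 7 of the further genes were bound, with 8.74% of all genes. A window of 250 bp left 2 of the 10 genes, 0 delta-9 genes and 1 further gene (2.12% of all genes). At 500 bp 3 of the 10 genes were bound, all of the polyunsaturated steps (3.57% of all genes). There 0 delta-9 genes were bound, since the fat-6 peak lies farther out. At 2000 bp 5 genes of the polyunsaturated steps and 4 further genes were bound (7.88% of all genes). The most upstream 5' end alone left 0 further genes. With 1 sample at a time, the 10 genes gave 3 in each case, the polyunsaturated steps 2, the delta-9 genes 1, the further genes 0 to 2, and all genes 2.51% to 3.4%. The percentile of fat-6 was 82.5 with a window of 500 bp. The alternative of the most upstream 5' end for percentiles was chosen after seeing the data. Of the counts, 32 stayed within 1.5 times the main value and 18 did not. No paired analysis was possible because there was 1 group.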
